A study of Canis lupus familiaris with 2 samples.

Results

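Mitochondrial ribosomal proteins are made in the cytosol from nuclear genes and imported into mitochondria, where they assemble with ribosomal RNA into the mitoribosome. The mitoribosome translates the few mRNAs of mitochondrial DNA, which encode membrane subunits of the respiratory chain and of ATP synthase. Its small subunit reads the mRNA, and its large subunit joins the amino acids and releases the chain toward the inner membrane. The genes were taken by symbol, as every row of both FPKM files that begins with MRPL or MRPS followed by a digit. This gave 74 genes of the 23510 features listed, of which 47 carry a large subunit symbol (MRPL) and 27 a small subunit symbol (MRPS). Every one of the 74 exceeded 1 FPKM in each culture, so the minimum of 1 FPKM removed none of them.

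The cells were MDCK cells, an established canine kidney line that forms columnar epithelium, grown on a semipermeable membrane. The height of the medium above the membrane set the static water pressure: 1 culture was kept in 2-cm-high medium, which the labels describe as no pressure, and 1 culture in 50-cm-high medium. The labels give 3 days of culture in EMEM with serum for both. Stranded mRNA libraries were sequenced from total RNA, and FPKM is the fragment number of a gene scaled to exon length and to library depth. With 1 culture per medium height there are no replicates. No difference could be set against replicate error, and no test, standard error or p-value is given. In bulk RNA, fewer cells of a type and less RNA per cell cannot be told apart.

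The values show epithelial cells in both cultures. The 5 epithelial markers lay at 81.5 to 1641 FPKM in the 2-cm culture and 84.8 to 1561 FPKM in the 50-cm culture. The 4 fibroblast markers summed to 0.172 and 0.154 FPKM, the 3 endothelial markers to 0.458 and 0.268 FPKM, and both leukocyte markers were listed at 0 FPKM. Read numbers per library are not given. Of the 574 features detected under 0.1 FPKM in each culture, 219 shared a 50-cm over 2-cm ratio of 1.10 to within 0.2%, the step left by 1 read against 1 read. The least abundant mitoribosome gene lay at 13.01 FPKM, far above values where single reads decide a ratio.

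The mitoribosome genes were mostly a little more abundant in 50-cm-high medium, in small steps rather than through a few strong changes. The steps were uneven, with quartiles of 0.05 and 0.21 on the log2 scale and 11 genes lower. The median ratio of 50-cm over 2-cm FPKM was 1.09 (0.13 on the log2 scale), and in 63 of the 74 genes (85.1%) the 50-cm culture had the higher value. Over all 11057 features above 1 FPKM in both cultures, 52.6% were higher and the median log2 ratio was 0.01. The range of the mitoribosome genes, 13.01 to 283 FPKM in both cultures, held 5727 features, the 74 genes included. Of these, 61.4% were themselves higher, with a median log2 ratio of 0.06. They are called features of like abundance below, though their median was 32.1 FPKM in the 2-cm culture against 56.5 for the mitoribosome genes. Quantile normalization turned 10 of the 74 genes from higher to lower and left 53 higher, and rescaling the cultures to the same summed FPKM turned 4 and left 59 higher.

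No mitoribosome gene passed 2-fold in either direction, whereas 1.67% of all features and 0.489% of those of like abundance did. MRPL34 alone passed 1.5-fold, against 7.19% and 2.9%, respectively. Higher by more than 25% were 9 of the 74 genes (12.2%), close to the 10.5% found both over all features and over those of like abundance. None was lower by more than 20%, compared with 13.3% of all features and 5.41% of those of like abundance. These counts moved with the scaling, to 5 higher and 0 lower at the same summed FPKM, 3 and 1 under quantile normalization, and 3 and 2 after recentring on features of like abundance. The log2 ratios of the 74 genes had an SD of 0.15 across genes, and those of features of like abundance an SD of 0.25. For each gene, the 500 features closest to it in abundance gave an SD of log2 ratios, which describes spread across genes and is not replicate error. This SD ran from 0.23 to 0.31, and 61 of the 74 genes lay within 1 such SD of 0. The median log2 ratio of the same 500 features ran from -0.005 to 0.098. Distances from 0 therefore favour higher values over lower ones for most genes. The matching share over all features was not computed, so the count does not set the mitoribosome genes apart.

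**Figure D1:**
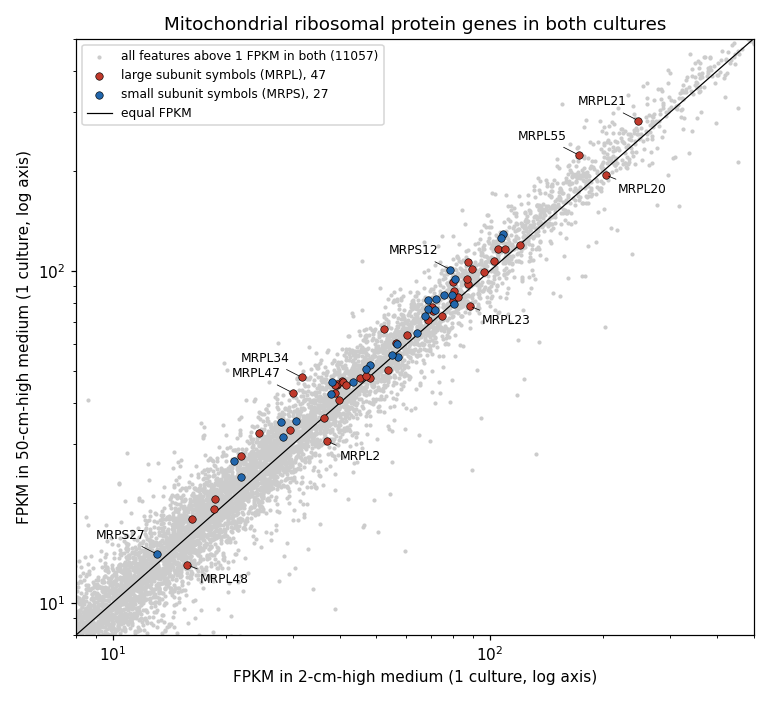
FPKM of each mitoribosome gene in 2-cm-high medium (x axis, log scale) and 50-cm-high medium (y axis, log scale), 1 culture each, with all features above 1 FPKM in grey and a line of equal FPKM. Most points, 63 of 74, lie just above the line, and MRPL48, MRPL2 and MRPL23 lie furthest below it.

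The order of abundance was nearly the same in both cultures. FPKM values are scaled by exon length, which allows a rough comparison between genes. The gene annotation and the handling of reads that map to several places are not given, so ranks between genes are approximate. The values spanned 18.9-fold in the 2-cm culture and 21.8-fold in the 50-cm culture. Across the 74 genes, Pearson's r between the cultures was 0.985 on the log2 FPKM scale and Spearman's rho was 0.981, a description across genes that share both libraries. Of the 10 most abundant genes, 9 were shared. The same values were not computed for other features, so a stable order is not shown to be particular to the mitoribosome genes.

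MRPL21, the counterpart of bacterial L21, was the most abundant, with 248 FPKM in the 2-cm culture and 283 FPKM in the 50-cm culture. MRPL20 had 203 and 194 FPKM, and MRPL55 had 172 and 223 FPKM, so that these exchanged ranks 2 and 3. MRPL14 followed with 120.2 and 119.6 FPKM. Small subunit genes reached less far up, MRPS16 leading them with 109 and 129 FPKM, ahead of MRPS21 with 107 and 125 FPKM, MRPS26 with 80.7 and 94.4 FPKM and MRPS25 with 80.3 and 79.2 FPKM. In 50-cm-high medium MRPS12, at 101 FPKM, stood ahead of MRPS26.

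At the lower end, MRPS27, a pentatricopeptide repeat protein of the small subunit, had 13.1 FPKM in the 2-cm culture and 13.99 FPKM in the 50-cm culture. MRPL48 had 15.7 and 13.01 FPKM, MRPL50 had 16.2 and 17.9 FPKM, and MRPL54 had 18.6 and 19.2 FPKM. MRPL48 and MRPS27 exchanged the last place between the cultures. MRPS30, with 21.0 and 26.7 FPKM, and MRPS36, with 21.8 and 23.9 FPKM, were the next least abundant genes with a small subunit symbol.

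Large and small subunit genes were expressed at like levels. The median FPKM was 53.8 for the large and 57.1 for the small subunit symbols in the 2-cm culture, and 60.5 and 60.3 in the 50-cm culture. Summed FPKM was 3165 for the large and 1548 for the small subunit symbols in the 2-cm culture, and 3437 and 1728 in the 50-cm culture. The ratio of the large to the small sum was thus 2.05 and 1.99, which mainly counts their 47 and 27 genes. All 74 genes together held 0.785% of the summed FPKM of all features in the 2-cm culture and 0.841% in the 50-cm culture.

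Taken by symbol, the genes of both subunits were shifted toward 50-cm-high medium, those of the small subunit by slightly more. For the large subunit, 38 of 47 genes (80.9%) were higher, and the median log2 ratio was 0.11 with a range of -0.27 to 0.59. For the small subunit, 25 of 27 genes (92.6%) were higher, and the median log2 ratio was 0.16 with a range of -0.05 to 0.36. These medians differed by 0.05 on the log2 scale. The SD across genes was larger than that, at 0.17 in the large and 0.11 in the small subunit. With genes assigned by place in the ribosome, the medians came closer, to 0.13 for the large and 0.14 for the small subunit. The difference between the medians was not tested, since 1 culture per height allows no test.

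**Figure D2:**
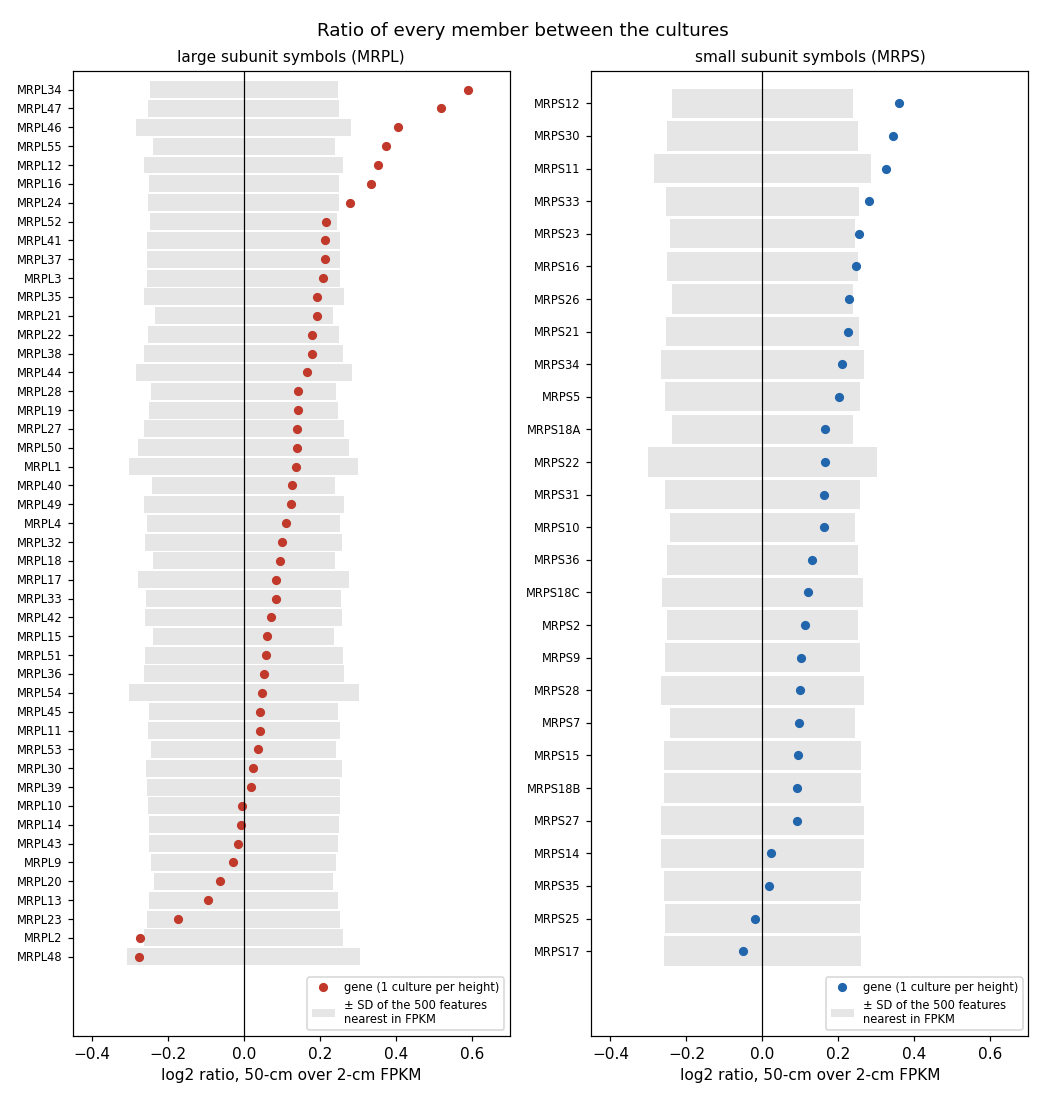
Log2 ratio of 50-cm over 2-cm FPKM (x axis) for every gene, sorted within the large subunit symbols (left) and the small subunit symbols (right), 1 culture per height. Grey bars mark the SD of the 500 features nearest in FPKM on either side of 0. The points of 13 genes lie outside their bar, MRPL2 to the left and the others to the right. The bars are centred on 0 and not on the median of those features, which lay above 0 for most genes.

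Symbols do not follow the subunits exactly. MRPS30 and MRPS18A sit in the large subunit in spite of their names, and MRPS36 is now known as a subunit of the alpha-ketoglutarate dehydrogenase complex. With MRPS30 and MRPS18A counted as large and MRPS36 left out, 40 of 49 large and 22 of 24 small subunit genes were higher, with median log2 ratios of 0.13 and 0.14. With mitoribosome proteins of other symbols added to the genes by symbol instead, the medians were 0.13 for 50 large and 0.16 for 31 small subunit genes.

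Among the large subunit genes, MRPL34 had the highest ratio. MRPL34 is the counterpart of bacterial L34, a small protein bound to ribosomal RNA. It had 31.7 FPKM in the 2-cm culture and 47.8 FPKM in the 50-cm culture, a ratio of 1.51 or 2.38 times the SD of its 500 nearest features, and moved from rank 60 to rank 45 of the 74 genes. MRPL47, the counterpart of L29 at the polypeptide exit, had 29.96 and 42.9 FPKM, a ratio of 1.43 or 2.06 times that SD. No other mitoribosome gene lay more than 2 such SDs from 0. These distances are counted from 0, whereas the median log2 ratio of the nearest features was 0.06 for MRPL34 and 0.05 for MRPL47. From that median both genes lie nearer. The share of all features beyond 2 such SDs was not computed, so neither gene is shown to stand out.

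MRPL46, a protein of the central protuberance without a bacterial counterpart, had 24.5 FPKM in the 2-cm culture and 32.4 FPKM in the 50-cm culture (ratio 1.33). MRPL55, among the most abundant of all, had a ratio of 1.30. MRPL12 forms the stalk that recruits translation factors and also binds mitochondrial RNA polymerase. It had 52.4 and 66.9 FPKM (ratio 1.28), and MRPL16, which lies close to the tRNAs, had 21.9 and 27.6 FPKM (ratio 1.26). All 6 genes stayed higher in 50-cm-high medium under every rescaling tried.

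The large subunit genes that were lower in 50-cm-high medium numbered 9, and 3 of them by more than 10%. MRPL48, in the central protuberance, had a ratio of 0.827. MRPL2, the counterpart of the conserved L2 near the peptidyl transferase centre, had 37.1 FPKM in the 2-cm culture and 30.7 FPKM in the 50-cm culture, also a ratio of 0.827. MRPL23, at the polypeptide exit, had 88.3 and 78.3 FPKM (ratio 0.887) and moved from rank 12 to rank 26. MRPL13 followed with 53.8 and 50.4 FPKM (ratio 0.937). The other 5, MRPL20, MRPL9, MRPL43, MRPL14 and MRPL10, had ratios of 0.958 to 0.997.

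Large subunit proteins with a bacterial counterpart lay on both sides of MRPL2's direction, 23 of 30 being higher. MRPL3 and MRPL4, whose counterparts lie in the core of the bacterial ribosome, had ratios of 1.16 and 1.08, and MRPL14 and MRPL10 had ratios of 0.994 and 0.997. MRPL3 had 39.3 FPKM in the 2-cm culture and 45.4 FPKM in the 50-cm culture, and MRPL4 had 80.5 and 87.0 FPKM.

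Among the small subunit genes, MRPS12 had the highest ratio. MRPS12 is the counterpart of S12, the protein of the decoding centre where codon and anticodon are checked. It had 78.6 FPKM in the 2-cm culture and 101 FPKM in the 50-cm culture (ratio 1.28), and moved from rank 23 to rank 12. MRPS30, of the large subunit by place, had a ratio of 1.27. MRPS11, the counterpart of S11, had 27.9 and 34.9 FPKM (25.2% higher), and MRPS33, a mitochondria-specific protein, had 38.1 and 46.3 FPKM (ratio 1.21).

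The small subunit genes that were lower in 50-cm-high medium were MRPS17 and MRPS25. MRPS17, the counterpart of S17, had 57.1 FPKM in the 2-cm culture and 55.2 FPKM in the 50-cm culture (ratio 0.966). MRPS25, which has no bacterial counterpart, had a ratio of 0.986. MRPS35, with 55.1 and 55.8 FPKM, and MRPS14, with 64.1 and 65.1 FPKM, differed by under 2% upward, and both turned lower under quantile normalization and under rescaling to the same sum.

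Proteins at the same place in the ribosome did not move in step. Of the 3 stalk genes, MRPL10 had 36.2 FPKM in the 2-cm culture and 36.1 FPKM in the 50-cm culture, MRPL11 had 96.2 and 99.0 FPKM, and only MRPL12 was higher by more than 25%. The 8 genes of the polypeptide exit region, which covers the tunnel from which nascent proteins leave, had a median log2 ratio of 0.13, with 7 higher. They held both MRPL47 and MRPL23, and also MRPL24 (ratio 1.21), while MRPL45, which ties the ribosome to the inner membrane, had a ratio of 1.03. The 8 genes of the central protuberance had a median log2 ratio of 0.16, with 7 higher. They held MRPL46 and MRPL55 on one side and MRPL48 on the other, and MRPL52 lay between them with a ratio of 1.16.

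Genes with and without a bacterial counterpart had like ratios. In the large subunit, 23 of 30 genes with a counterpart were higher (median log2 ratio 0.11), as were 15 of 17 without one (0.13). In the small subunit, 12 of 13 genes with a counterpart were higher (0.12), as were 8 of 9 without one (0.17). MRPS18A, MRPS18B, MRPS28, MRPS30 and MRPS36 were placed in neither group. In 2-cm-high medium, large subunit genes with a counterpart had a median of 70.4 FPKM and those without one 40.7 FPKM, and in 50-cm-high medium 74.3 and 45.5 FPKM. In the small subunit the medians were 67.4 and 55.1 FPKM in the 2-cm culture, and 73.2 and 55.8 FPKM in the 50-cm culture. MRPS6 and MRPS24, which belong to the small subunit genes with a counterpart, were not analysed here.

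The relatives of bacterial S18 are encoded by 3 genes, whose products take different places in the ribosome. MRPS18A had 68.5 FPKM in the 2-cm culture and 76.9 FPKM in the 50-cm culture (ratio 1.12). MRPS18B had 56.6 and 60.3 FPKM (ratio 1.07), and MRPS18C had 67.4 and 73.2 FPKM (ratio 1.09). All 3 were thus expressed at like levels, and none stood out in its ratio.

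**Figure D3:**
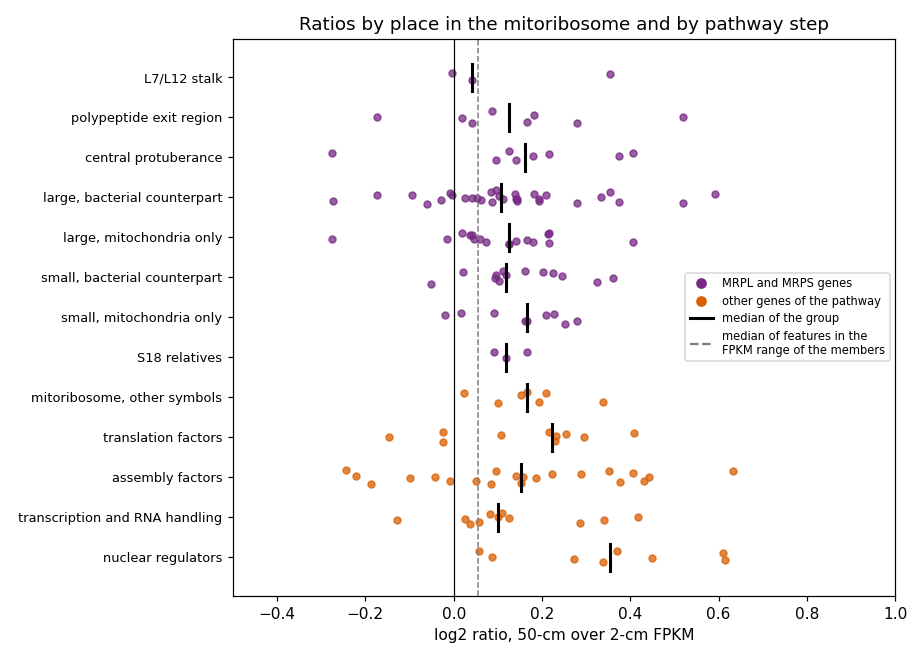
Log2 ratio of 50-cm over 2-cm FPKM (x axis) for groups of mitoribosome genes by place and origin (purple) and for other genes of the pathway (orange), 1 point per gene, with the median of each group in black. The median of every group but the stalk (0.04) lies to the right of the dashed line, the median of features of like abundance (0.06).

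Mitoribosome proteins whose symbols do not begin with MRPL or MRPS showed differences of like size. Of 7 such genes in the files, 7 were higher in 50-cm-high medium, with a median log2 ratio of 0.17, and 6 stayed higher under quantile normalization or rescaling to the same sum. The backgrounds were 52.6% of all features above 1 FPKM in both cultures and 61.4% of those of like abundance. GADD45GIP1, a large subunit protein, had 36.6 FPKM in the 2-cm culture and 46.3 FPKM in the 50-cm culture (ratio 1.26). DAP3, a GTP-binding protein of the small subunit, had 47.1 and 47.9 FPKM (ratio 1.02). CHCHD1 (1.14), PTCD3 (1.12) and AURKAIP1 (1.07) of the small subunit lay between, as did MRP63 (1.16) and the peptidyl-tRNA hydrolase ICT1 (1.11) of the large subunit.

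Most genes for translation factors, ribosome assembly, and transcription and RNA handling in mitochondria were higher in 50-cm-high medium as well, but no list went wholly one way. Over all features above 1 FPKM in both cultures, 52.6% were higher. Among the translation factors, 7 of 10 were higher in 50-cm-high medium (median log2 ratio 0.22). TUFM, the elongation factor that brings aminoacyl-tRNA to the ribosome, had 118 FPKM in the 2-cm culture and 138 FPKM in the 50-cm culture (ratio 1.17). The ratios ran from 0.904 for the release factor family gene MTRF1 to 1.33 for GUF1, which rested on 1.98 and 2.63 FPKM.

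Among the assembly and ribosomal RNA modification factors, 15 of 21 were higher (median log2 ratio 0.15). MRM1, a methyltransferase of the large ribosomal RNA, had the highest ratio, with 27.0 FPKM in the 2-cm culture and 41.8 FPKM in the 50-cm culture (1.55-fold). NSUN4, a methyltransferase of the small ribosomal RNA that also takes part in joining the subunits, had the lowest, with 7.73 and 6.53 FPKM (ratio 0.844). In this group 6 of 21 genes were higher by more than 25% and none lower by more than 20%, where the backgrounds are 10.5% and 13.3%.

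Among the genes for transcription and RNA handling in mitochondria, 10 of 11 were higher (median log2 ratio 0.10). This count came to 9 at the same summed FPKM and to 8 after recentring on features of like abundance. TEFM, the transcription elongation factor, had 8.49 FPKM in the 2-cm culture and 11.3 FPKM in the 50-cm culture (ratio 1.34), and MTERF had 9.99 and 9.13 FPKM (ratio 0.914). No gene of these 3 lists passed 2-fold.

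Side by side with the mitoribosome genes, 73 cytosolic ribosomal protein genes had a median log2 ratio of 0.06, with 57 higher in 50-cm-high medium (78.1%), a direction that turned under quantile normalization (29 higher, 38 lower). Their median was 1335 FPKM in the 2-cm culture and 1404 FPKM in the 50-cm culture, far above that of the mitoribosome genes. The 34 genes for subunits of respiratory complex I, which contains proteins made by the mitoribosome, had a median log2 ratio of 0.005, with 17 higher and 17 lower, or 10 higher and 24 lower under quantile normalization. The 17 mitochondrial aminoacyl-tRNA synthetase genes, whose products charge tRNAs for the mitoribosome, had a median log2 ratio of 0.01, with 10 higher (8 after rescaling to the same sum), and spread more widely (SD 0.30 across genes). These differences between gene groups were not tested.

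**Figure D4:**
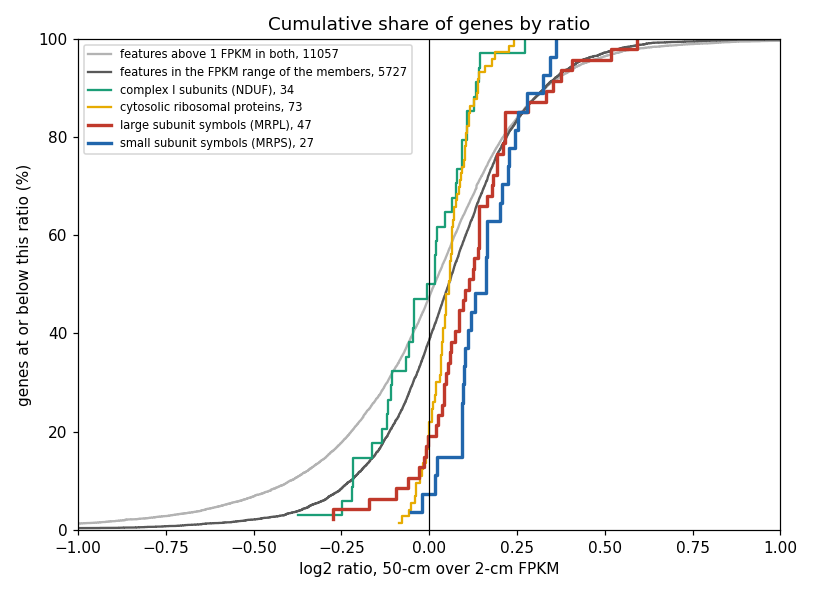
Cumulative share of genes (y axis, %) at or below each log2 ratio of 50-cm over 2-cm FPKM (x axis), 1 culture per height. At a ratio of 0 the small subunit curve stands at 7.41% and the large subunit curve at 19.1%, below the curves of all features (47.4%), features of like abundance (38.6%), complex I (50.0%) and cytosolic ribosomal proteins (21.9%).

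Mitoribosome genes of low, middle and high abundance had like ratios. Of the 25 least abundant genes, 22 were higher in 50-cm-high medium (median log2 ratio 0.17), of the middle 24 genes 20 (0.096) and of the 25 most abundant genes 21 (0.13). The SD across genes was 0.20 for the least abundant, 0.096 for the middle and 0.13 for the most abundant genes. Of the 74 genes, 51 lay above the median log2 ratio of their own 500 nearest features, and 23 lay below it. The same count was not made over all features, so it does not set the mitoribosome genes apart.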

How the data were processed

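The authors sequenced RNA from MDCK cells, 1 culture per medium height (2 and 50 cm), as 75-base single-end reads from stranded mRNA libraries. Per the submitters' processing notes and the study's methods, TopHat 2.0.13 (using SAMtools 0.1.19 and Bowtie 2 2.2.3) aligned the reads to CanFam3.1, and Cuffnorm 2.2.1 gave the deposited FPKM values. The gene annotation, the scaling method, the strand setting and the handling of reads that map to several places are not given in the sources used here. FPKM is relative to the library, so a change in abundant genes shifts all others.

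For features that exceeded 1 FPKM in each culture, the 50-cm value was divided by the 2-cm value with no pseudocount. Features were counted past 2-fold and 1.5-fold, and as higher by more than 25% or lower by more than 20%, which are the same step on the log scale. With 1 sample per group no test was run. The spread of the 500 features closest in abundance (mean log2 FPKM) and the features in the FPKM range of the members are given as descriptions. Members and lists were chosen with earlier results of these data known. The genes named are, per subunit, the 4 highest and 4 lowest ratios, the 4 most and 3 least abundant, those past 1.5-fold, the MRPS18 genes, MRPS30, MRPS36, the stalk and decoding centre, and the extremes of each other list. A few others (MRPL3, MRPL4, MRPL24, MRPL45, MRPL52, TUFM and further list members) were added after their values were seen. The groups by symbol pattern (cytosolic ribosomal proteins, complex I, aminoacyl-tRNA synthetases) and the neighbouring genes were also added later. Neighbours were taken by name from a RefSeq gene table of another assembly (UU_Cfam_GSD_1.0), which held 73 of the 74 members, and only the order and overlap of genes were read from it, with no position printed. Alternatives were other FPKM minima, pseudocounts of 0.1 and 1, 4 rescalings (1 of them added later) and other assignments to the subunits. Scripts were tested on simulated data. Python 3.11.15, numpy 2.4.6, pandas 2.3.3, scipy 1.17.1 and matplotlib 3.10.9 were used. The depth in reads is unknown, so values carry no confidence interval. Sequences of the members were not used here, and a planned motif search in their promoters was not run.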

Additional observations from a re-analysis of the deposited data

How the results depend on the processing

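FPKM minima of 0, 0.1 or 5 kept all 74 genes and changed nothing, and pseudocounts of 0.1 and 1 left the number higher in 50-cm-high medium at 63, as did recentring on the median of all features. The median log2 ratio of all 74 genes fell from 0.126 to 0.093 after rescaling to the same sum and to 0.067 after quantile normalization. For the large subunit, quantile normalization gave 0.056. Recentring on features in the FPKM range of the members, an alternative chosen after seeing the data, gave 0.070 for all genes and 0.057 for the large subunit, with 54 of 74 genes higher. The median of all features lay at -0.018 after rescaling to the same sum and at 0.011 after quantile normalization. No gene passed 2-fold under any of these settings. On the deposited scale, 1 passed 1.5-fold and 9 were higher by more than 25% or lower by more than 20%. The last count came to 4 under quantile normalization, where 3 were higher and 1 lower. No paired analysis was possible because each group has 1 library, and no replicate could be left out. In the other assembly, 12 of 73 members overlap a neighbouring gene, among them MRPL34, MRPL55 and MRPS12, and reads of such pairs cannot be told apart where the counting ignored strand. Each read added 9.77% more FPKM to a gene in 50-cm-high medium than in 2-cm-high medium.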

Other observations

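Nuclear regulators of genes for mitochondrial proteins were higher in 50-cm-high medium in all 8 cases above 1 FPKM, with a median log2 ratio of 0.35 (1 culture per height, no test), and under every rescaling tried. Over all features above 1 FPKM in both cultures, 52.6% were higher. This short list was chosen with earlier results of these data known. PPRC1, a relative of the PGC-1 coactivators, had 14.5 FPKM in the 2-cm culture and 22.2 FPKM in the 50-cm culture (1.53-fold). The transcription factor MYC had 57.7 and 88.0 FPKM (1.53-fold), and the nuclear receptor ESRRA had 46.5 and 63.6 FPKM (1.37-fold). NRF1 (ratio 1.06) and GABPA (1.04), factors known to act at promoters of such genes, differed little, and GABPB1 (1.26), PPARGC1B (1.29) and YY1 (1.21) lay between. PPARGC1A had 0.0115 FPKM in the 2-cm culture and was listed at 0 FPKM in the 50-cm culture. Any part of these factors in the ratios of the mitoribosome genes was not tested.

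Genes next to the mitoribosome genes on the chromosome did not share their direction as a group. Of 87 neighbouring protein-coding genes above 1 FPKM in both cultures, 40 were higher and 47 lower in 50-cm-high medium, with a median log2 ratio of -0.05. MRPL46 and MRPS11 are neighbours of each other, and on the deposited scale both were among the 9 mitoribosome genes that were higher by more than 25%. MRPS11 passed this step narrowly, at 25.2%, and fell below it under every rescaling tried, with a log2 ratio of 0.29 at the same summed FPKM. MRPL47 lies beside NDUFB5, a complex I subunit gene with 21.4 and 20.6 FPKM (log2 ratio -0.06), and MRPS12 beside SARS2, the mitochondrial seryl-tRNA synthetase gene, with 7.76 and 6.55 FPKM (log2 ratio -0.24). MRPL34 shares its locus with ABHD8, which had 9.42 and 9.52 FPKM (log2 ratio 0.01). Beside the mitoribosome genes that were lower, 13 neighbours were above 1 FPKM, of which 9 were lower and 4 higher. Lower values were also found in 47 of the 87 neighbours of all members and in 47.4% of all features above 1 FPKM. A count of 13 genes from 1 pair of cultures cannot show a shared direction. Among the higher neighbours were MTBP beside MRPL13 (log2 ratio 0.29) and CCNL2 beside MRPL20 (0.05). MRPL2 lies between CUL7 (10.99 and 7.11 FPKM, log2 ratio -0.63) and KLC4 (13.9 and 9.95 FPKM, log2 ratio -0.48), both lower as well. MRPL23, also lower, lies beside IGF2, which had 69.3 FPKM in the 2-cm culture and 30.7 FPKM in the 50-cm culture (log2 ratio -1.18). These neighbours were named after their values were seen, and a shared cause was not tested.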
